A study of Homo sapiens with 112 samples.

Results

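The data are RNA-seq read counts for 10 genes of WNT signalling in 2 prostate cancer cell lines treated with an androgen and with an androgen receptor antagonist. The 10 genes were found by their symbols among the 58684 gene rows of the count table. They were chosen with earlier results of these data known, so counts of members beside the share of all genes are descriptive. They are the secreted ligands WNT2, WNT2B, WNT5A, WNT7B and WNT11, the feedback inhibitors AXIN2 and NKD1, the transcription factors LEF1 and TCF7, and the receptor ROR1, so the set is wider than ligands and feedback genes. All 10 passed the filter on low counts in VCaP, where 19266 genes were tested, and 8 passed it in LAPC4, where 18204 genes were tested. WNT2 and WNT11 were below the filter in LAPC4.

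VCaP and LAPC4 are established, androgen-responsive human prostate cancer lines, and VCaP carries the TMPRSS2-ERG fusion. Before treatment the cells of every group spent 2 days in starvation medium with 10% charcoal-stripped serum. Each line then had 8 groups, which were vehicle (DMSO), 1 nM of the synthetic androgen R1881, 1 nM R1881 plus 500 nM darolutamide and 1 nM R1881 plus 2 µM darolutamide, each harvested at 8 h and at 22 h. Darolutamide is a competitive antagonist of the androgen receptor, and neither dose was given without R1881. Groups held 4 to 10 libraries, 55 in VCaP and 57 in LAPC4. The study describes biological replicates, but the labels do not say that the libraries of a group were separate cultures, so p-values measure the spread between libraries, which may be technical.

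WNT proteins are secreted lipid-modified ligands that bind Frizzled receptors. In the canonical branch they stabilise β-catenin, which enters the nucleus and works with TCF and LEF transcription factors, and AXIN2 and NKD1 are among the target genes whose products damp the signal. WNT5A and WNT11 are known mainly for branches that do not need β-catenin, and ROR1 is a receptor for WNT5A.

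Start-site sequences are shown for WNT2, the gene with the largest change, and for TCF7, because a motif match falls in it. Both come from RefSeq (GRCh38.p14) and are written 5′ to 3′ in the direction of transcription. The WNT2 stretch (chr7:117323153-117323308, minus strand, 156 bases) lies upstream of the annotated exons, and the TCF7 stretch (chr5:134123368-134123617, plus strand, 250 bases) precedes the second of its listed starts. Capitals mark AGAACA, a half-site of the androgen receptor motif, which begins 78 bases before that start.
WNT2: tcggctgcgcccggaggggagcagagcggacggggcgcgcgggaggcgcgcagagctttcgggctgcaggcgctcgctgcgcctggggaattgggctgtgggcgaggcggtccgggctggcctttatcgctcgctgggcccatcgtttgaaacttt
TCF7: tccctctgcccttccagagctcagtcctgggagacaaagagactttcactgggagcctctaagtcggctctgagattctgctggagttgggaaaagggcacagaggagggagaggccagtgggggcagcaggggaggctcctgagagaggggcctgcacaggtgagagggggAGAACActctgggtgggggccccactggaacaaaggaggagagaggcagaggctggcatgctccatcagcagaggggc

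The 250 bases before each listed start were searched on both strands for that half-site and for the TCF/LEF core CTTTGA. Of 35116 such windows over all genes, 12.4% held the half-site and 11.2% the TCF/LEF core. The table held windows for WNT2, WNT2B, WNT5A, ROR1, TCF7 and LEF1. A half-site was found for TCF7 and for LEF1, 10 bases before its start, and the TCF/LEF core was found in none of these windows. WNT7B, WNT11, AXIN2 and NKD1 are named only.

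Libraries held 12188455 to 25201678 reads over genes, with a median of 20298766 in VCaP and 20001650 in LAPC4. ERG, which the fusion drives in VCaP, had 1578 to 21554 reads in each VCaP library and at most 1 in each LAPC4 library. All 8 luminal prostate markers were measured in both lines, with a summed level of 3526 to 14787 CPM (read counts scaled to the library size) in VCaP and 1544 to 2240 CPM in LAPC4. Leukocyte markers summed to at most 0.145 CPM in VCaP and 0.401 CPM in LAPC4, and endothelial markers to at most 3.32 and 3.46 CPM. Several of these lists moved with the treatment. At 22 h in VCaP, luminal markers summed to 3789 to 4431 CPM in DMSO and 13411 to 14787 CPM with R1881, and endothelial markers, mostly VWF, to 0.413 to 0.840 CPM and 2.02 to 3.32 CPM. In LAPC4 the fibroblast list summed to 4.43 to 6.10 CPM in DMSO and 2.11 to 3.23 CPM with R1881 at 22 h. In VCaP the fibroblast list summed to 27.7 to 31.5 CPM in DMSO at 22 h, 1.07 to 2.33 CPM with R1881 and 5.67 to 6.78 CPM with R1881 plus 2 µM darolutamide, and LUM made up most of it. Of the other genes of this list, COL1A1 was at 0.406 to 1.75 CPM and PDGFRB at 0.145 to 2.03 CPM in the VCaP libraries. COL1A2 was at 0 in every VCaP library, and COL3A1 and DCN reached at most 0.724 and 0.354 CPM. In such bulk samples, fewer cells of a type and less RNA per cell cannot be told apart.

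In VCaP cells kept in DMSO for 22 h, LEF1 was the most abundant of the 10 genes per length, followed by WNT2. On a scale of CPM per kilobase of exon, LEF1 stood at 34.9 ± 0.993 (SD, n = 8), and WNT2 at 19.4 ± 0.809. ROR1 (1.99 ± 0.166) and WNT5A (1.90 ± 0.151) came next and overlapped each other, as did WNT7B (1.07 ± 0.1602) and AXIN2 (0.721 ± 0.130). WNT2B, WNT11, TCF7 and NKD1 lay between 0.226 and 0.0566 CPM per kilobase, each overlapping its neighbour in that order. LAPC4 had another order at the top. WNT5A led with 23.5 ± 1.40 CPM per kilobase (SD, n = 7), above LEF1 at 19.9 ± 0.856 and ROR1 at 8.00 ± 0.523, and none of these overlapped its neighbour. WNT7B (1.17 ± 0.201) and AXIN2 (0.787 ± 0.0635) were again in the middle, and WNT2B, NKD1, TCF7, WNT11 and WNT2 were at 0.0582 or below. WNT2 held at most 1 read in any LAPC4 library and WNT11 at most 3, so neither was followed further there.

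The first comparison asks what the androgen did to these genes in VCaP. R1881 lowered WNT2, WNT2B and WNT5A at both times and raised WNT7B, ROR1 and TCF7 at both times. LEF1 and AXIN2 rose at 8 h, and WNT11, NKD1 and AXIN2 fell at 22 h. At an adjusted p below 0.05 (edgeR's quasi-likelihood test, Benjamini-Hochberg over all genes), 8 of 10 members passed at 8 h, 5 higher and 3 lower, against 66.9% of all genes tested (32.8% higher and 34.1% lower). At 22 h 9 of 10 passed, 3 higher and 6 lower, against 77.4% of all genes (37.4% higher and 40% lower). Most measured genes of this line passed, so the members' share is near the background.

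WNT2 (chr7:117275451-117323152), a canonical ligand that is typically made by mesenchymal cells, showed the largest change of the 10 genes. At 8 h its level was 98.8, 104.9 and 106.5 CPM (lowest, median and highest of 10 libraries) in DMSO and 3.93, 4.40 and 5.35 CPM in 10 R1881 libraries. By 22 h the 8 DMSO libraries stood at 78.6, 83.9 and 89.0 CPM, and the 9 R1881 libraries at 0.185, 0.574 and 0.842 CPM, on 3 to 18 reads each. The groups were far apart at both times. The log2 fold change was -4.50 (standard error 0.06, adjusted p = 1.06e-52) at 8 h and -7.33 (standard error 0.09, adjusted p = 1.22e-54) at 22 h, a 161-fold lower level. The fibroblast list was lower in the same libraries, as given above, and its part in the WNT2 change was not tested. A gene on the opposite strand that shares 169 exon bases with WNT2 held 812 reads over the 55 VCaP libraries, beside 47040 for WNT2. It was lower with R1881 too (log2 fold change -0.88 at 8 h and -3.41 at 22 h, adjusted p = 4.23e-16), and its part in the WNT2 change was not tested.

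WNT2B (chr1:112466541-112530165), the closest relative of WNT2, fell alongside it from a much lower level. DMSO libraries at 22 h ranged from 1.83 to 3.28 CPM with a median of 3.06, and R1881 libraries from 0.0522 to 0.531 CPM with a median of 0.269. These groups did not overlap, nor did those at 8 h (2.19 to 3.19 CPM against 0.193 to 0.855 CPM). The log2 fold changes were -2.30 at 8 h (standard error 0.17, adjusted p = 9.22e-18) and -3.42 at 22 h (standard error 0.22, adjusted p = 9.37e-21). WNT2B shares 2665 exon bases with ST7L on the opposite strand. The library kit was stranded, but without a stated strand setting for the counting their reads cannot be told apart there. ST7L itself had a log2 fold change of -0.16 at 8 h and 0.10 at 22 h.

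WNT5A (chr3:55465715-55490539), the prototype ligand of β-catenin-independent signalling, fell later and less. At 8 h DMSO libraries had 8.11, 9.33 and 10.2 CPM (lowest, median and highest) and R1881 libraries 5.02, 6.44 and 8.14 CPM, so the highest R1881 library just passed the lowest DMSO library. After 22 h they were 12.2, 13.6 and 15.2 CPM against 2.90, 4.26 and 4.89 CPM, with a wide gap between the groups. The log2 fold change went from -0.52 (standard error 0.07, adjusted p = 1.19e-09) to -1.73 (standard error 0.08, adjusted p = 4.76e-28). Between these times WNT5A also rose in DMSO, by 0.57 (log2, standard error 0.07).

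WNT7B (chr22:45920366-45977162), a canonical ligand of epithelial cells, was the member that R1881 raised most, and the rise was much larger early. DMSO libraries at 8 h had 3.90, 5.40 and 9.14 CPM, and R1881 libraries 41.0, 53.9 and 77.3 CPM. At 22 h they had 3.90, 5.67 and 6.30 CPM against 7.94, 11.5 and 15.4 CPM. Neither pair of groups overlapped. The log2 fold change was 3.27 at 8 h (standard error 0.13, adjusted p = 1.57e-30) and 1.06 at 22 h (standard error 0.15, adjusted p = 3.97e-09). DMSO changed little in this time (-0.07, standard error 0.15), and the R1881 level itself fell from a mean of 54.6 to 11.2 CPM.

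WNT11 (chr11:76186325-76210736), a ligand of the β-catenin-independent branch, was counted on few reads. Its DMSO libraries held 5 to 9 reads at 8 h and 1 to 11 at 22 h, against 3 to 11 and 0 to 2 with R1881. The levels at 22 h were 0.0451, 0.373 and 0.568 CPM in DMSO and 0, 0.04996 and 0.133 CPM with R1881, and 1 DMSO library lay inside the R1881 range. The log2 fold change was -0.10 at 8 h (standard error 0.27, adjusted p = 0.76) and -2.55 at 22 h (standard error 0.44, adjusted p = 7.14e-07).

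**Figure D1:**
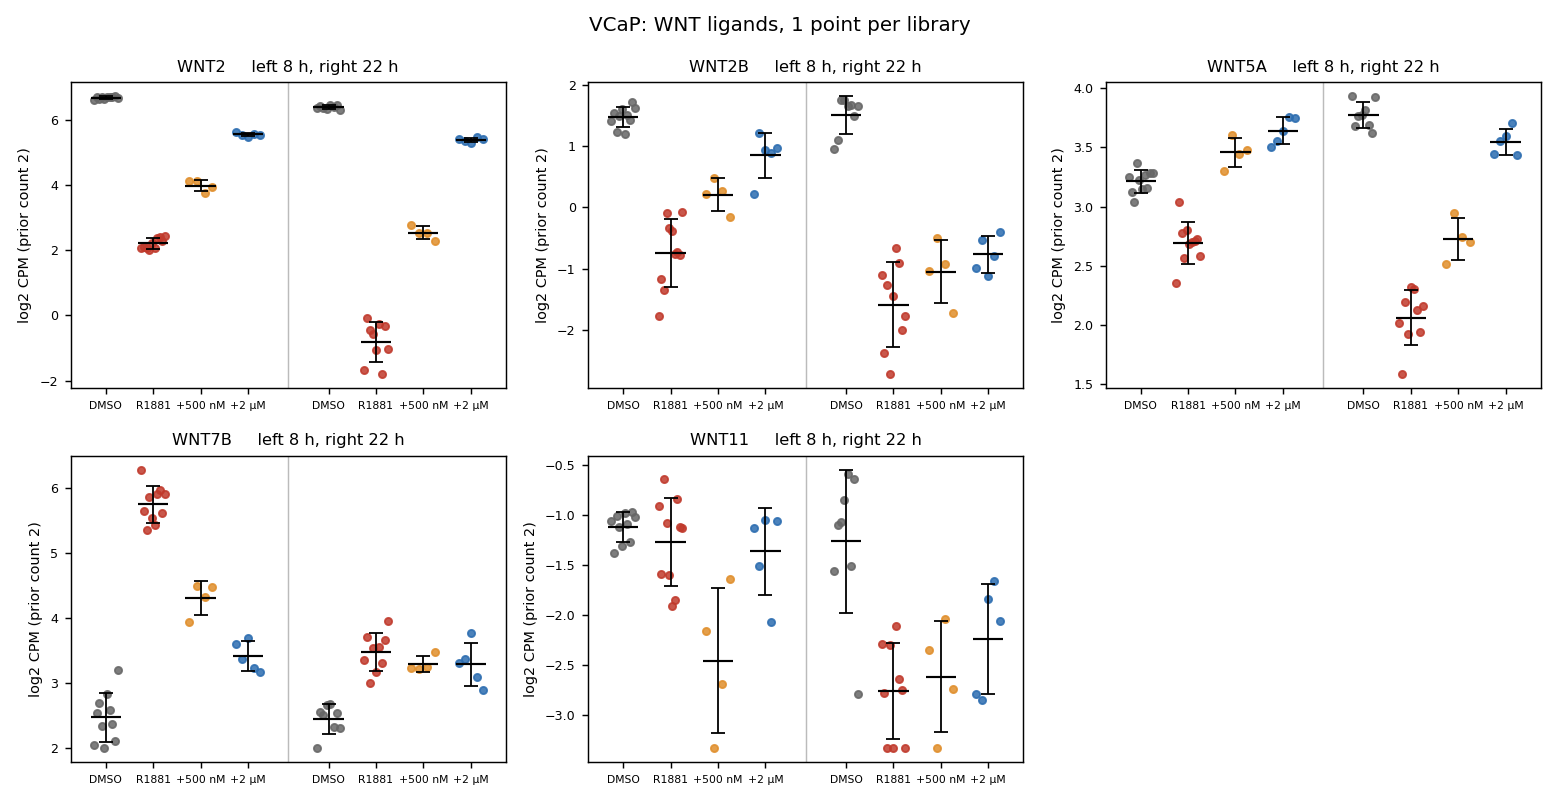
Level of the 5 WNT ligands in each VCaP library, as log2 CPM with a prior count of 2 (vertical axis), by treatment at 8 h (left of the line in each panel) and 22 h (right). The labels +500 nM and +2 µM stand for R1881 plus that dose of darolutamide, and bars give the mean and SD. WNT2 drops with R1881 at both times and climbs with dose, while WNT7B peaks with R1881 at 8 h, where its libraries hold 41.0 to 77.3 CPM.

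ROR1 (chr1:63774017-64181498), the tyrosine kinase-like receptor of WNT5A, rose while its ligand fell. Its level at 8 h was 14.3, 15.7 and 16.5 CPM in DMSO and 29.6, 34.2 and 37.6 CPM with R1881. After 22 h they were 11.9, 13.3 and 15.7 CPM against 18.6, 20.1 and 21.1 CPM. The groups stood apart at both times, with log2 fold changes of 1.11 (standard error 0.04, adjusted p = 5.03e-31) and 0.56 (standard error 0.05, adjusted p = 4.49e-16).

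The nuclear factors differed from each other. LEF1 (chr4:108047545-108168956) was raised at 8 h, from 174.7, 180.2 and 193.3 CPM in DMSO to 237.3, 271.3 and 291.5 CPM with R1881, without overlap (log2 fold change 0.58, standard error 0.03, adjusted p = 1.5e-26). At 22 h the groups overlapped, at 179.9 to 197.7 CPM against 175.1 to 186.9 CPM (-0.06, standard error 0.03, adjusted p = 0.0539). That small difference passed the threshold in 6 of 9 alternatives, with DESeq2 among them (adjusted p = 0.0466). TCF7 (chr5:134114681-134151865), in contrast, rose at both times from a low level. It had 0.657, 1.15 and 1.68 CPM in DMSO and 1.92, 2.28 and 2.91 CPM with R1881 at 8 h, and 0.455, 0.839 and 0.901 CPM against 2.21, 2.46 and 2.82 CPM at 22 h. No R1881 library reached down to the DMSO range, and the log2 fold changes were 1.06 (standard error 0.12, adjusted p = 9.32e-12) and 1.69 (standard error 0.14, adjusted p = 2.59e-16). TCF7 shares 210 exon bases with SKP1 on the opposite strand, a gene with 269634 reads over the VCaP libraries beside 2000 for TCF7. SKP1 changed by 0.18 (log2) with R1881 at both times.

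Among the feedback genes AXIN2 alone passed the test at 8 h, and both AXIN2 and NKD1 were lower with R1881 at 22 h. AXIN2 (chr17:65528563-65561648), the scaffold of the complex that degrades β-catenin, rose at 8 h from 2.91, 3.62 and 4.33 CPM to 4.65, 5.85 and 6.90 CPM, with no overlap (log2 fold change 0.69, standard error 0.08, adjusted p = 1.01e-10). At 22 h it was lower with R1881, at 2.60, 2.99 and 3.92 CPM against 2.61, 3.74 and 4.90 CPM in DMSO, with overlapping groups (-0.24, standard error 0.10, adjusted p = 0.0199). That later fall missed the threshold with only control replicates 1 to 5 (adjusted p = 0.079) or only those numbered 6 and above (adjusted p = 0.0923). AXIN2 shares 1316 exon bases with another annotated gene on the same strand, whose part in these values was not tested. NKD1 (chr16:50548396-50649249), a binding partner of Dishevelled that dampens the signal, had 0.860 to 1.46 CPM in DMSO and 1.16 to 1.75 CPM with R1881 at 8 h (0.26, standard error 0.13, adjusted p = 0.0688), which passed with GC as a covariate (0.0401) or with only the groups compared (0.0464). By 22 h it had fallen, from 0.385, 1.04 and 1.31 CPM to 0.376, 0.528 and 0.748 CPM (-0.77, standard error 0.17, adjusted p = 6.79e-05). The groups overlapped at both times, at 22 h through 1 DMSO library.

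**Figure D2:**
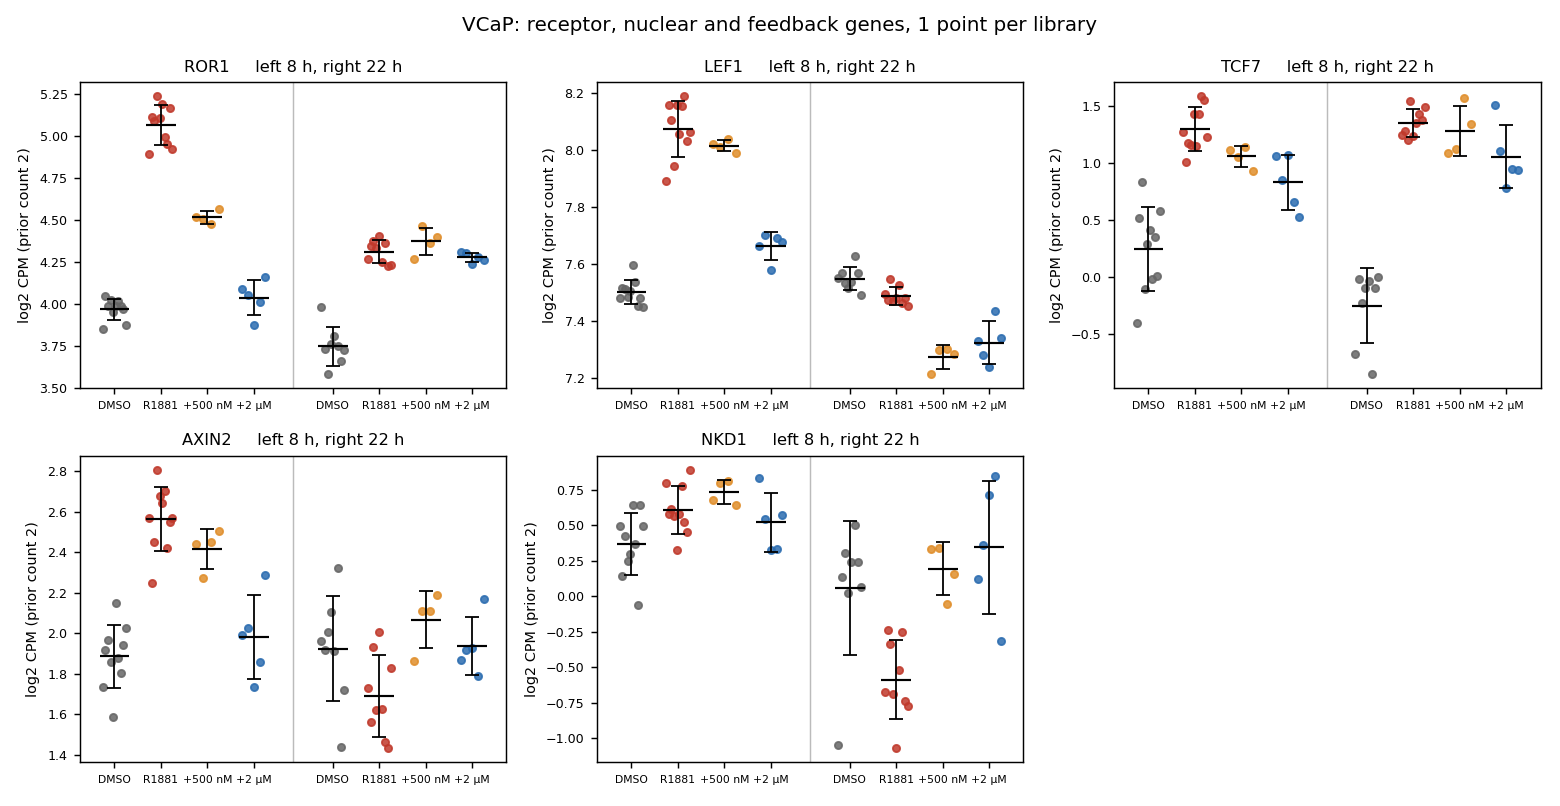
Level of ROR1, LEF1, TCF7, AXIN2 and NKD1 in each VCaP library, as log2 CPM with a prior count of 2, by treatment at 8 h (left) and 22 h (right), with mean and SD bars. At 8 h ROR1, LEF1 and AXIN2 are high with R1881 and lower with R1881 plus 2 µM, and at 22 h ROR1 and TCF7 stay near their R1881 level under both doses.

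Whether the R1881 effect differed between 22 and 8 h was tested directly as an interaction. All 10 members passed in VCaP, against 60.4% of all genes, and the difference in log2 fold change (22 h minus 8 h) was negative for 9 of them. For WNT2, WNT2B, WNT5A and WNT11 a negative sign meant a deeper fall at 22 h, and for WNT7B and ROR1 a smaller rise. LEF1, AXIN2 and NKD1 went from estimates above 0 at 8 h to estimates below 0 at 22 h. The difference was -2.83 (standard error 0.13) for WNT2, -2.21 (standard error 0.19) for WNT7B, -2.45 (standard error 0.52) for WNT11 and -1.21 (standard error 0.10) for WNT5A. TCF7 was the only member with a positive difference, a larger rise at 22 h (0.63, standard error 0.19, adjusted p = 0.00282), a call that was lost with only the control replicates numbered 6 and above (0.62, adjusted p = 0.0636). In DMSO alone, 4 of 10 members differed between the times, against 29.8% of all genes. WNT5A rose, and WNT2 (-0.29, standard error 0.05), ROR1 (-0.22, standard error 0.05) and TCF7 (-0.59, standard error 0.15) fell. The TCF7 change in DMSO missed the threshold with only control replicates 1 to 5 (adjusted p = 0.0557) or 6 and above (adjusted p = 0.055).

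**Figure D3:**
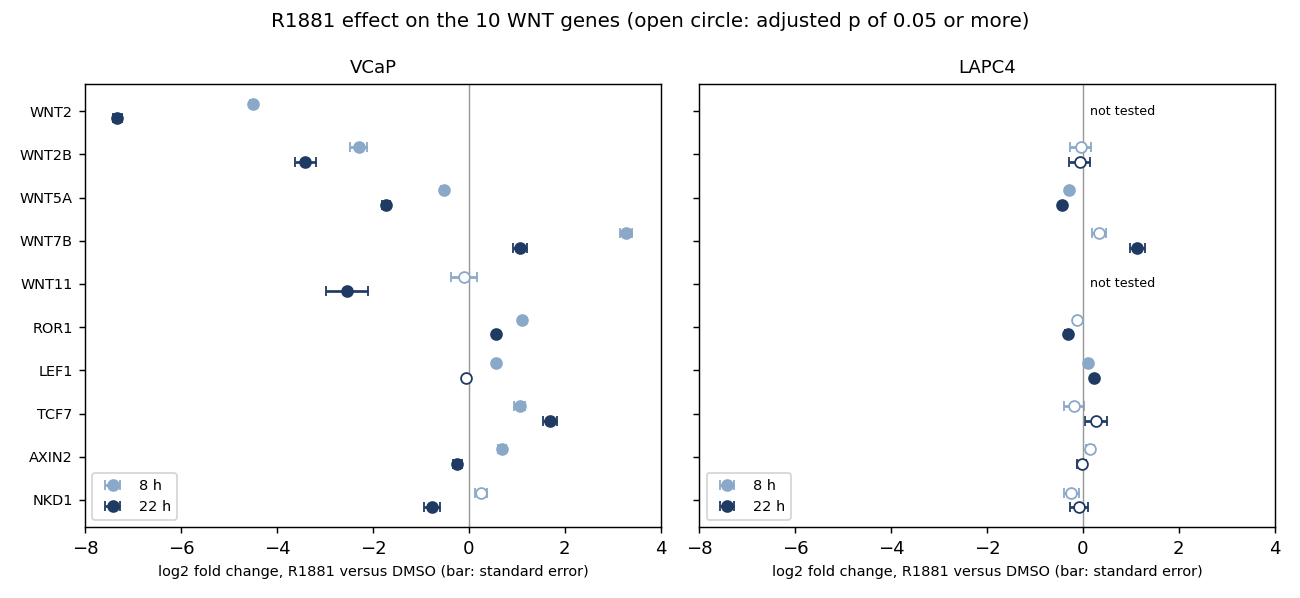
Log2 fold change of R1881 versus DMSO with its standard error (horizontal axis) for each of the 10 genes in VCaP and LAPC4, at 8 h (light) and 22 h (dark). Open circles mark an adjusted p of 0.05 or more, and the WNT2 points at -4.50 and -7.33 lie farthest from 0.

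The next comparison asks what darolutamide did to the androgen response in VCaP. These contrasts share the R1881 libraries with those above, so opposite signs are in part built in, and the values are set side by side with the DMSO level. With 2 µM darolutamide, WNT2, WNT2B and WNT5A were higher than with R1881 alone at both times, and WNT7B, ROR1, TCF7, AXIN2 and LEF1 were lower at 8 h. At 22 h WNT2, WNT5A, NKD1, WNT2B and AXIN2 were higher and LEF1 lower, while ROR1, WNT7B, TCF7 and WNT11 did not pass the test. That makes 8 of 10 members at 8 h (3 higher, 5 lower) against 52.1% of all genes (25.9% higher, 26.2% lower), and 6 of 10 at 22 h (5 higher, 1 lower) against 66.9% (36.1% higher, 30.8% lower). At 500 nM, 6 of 10 passed at 8 h against 30.6% of all genes, and 5 of 10 at 22 h against 53%.

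WNT2 rose in steps with the dose at both times. At 8 h the 4 libraries with 500 nM had 17.5, 17.3, 13.6 and 15.2 CPM, and the 5 with 2 µM had 49.9, 46.9, 44.8, 47.2 and 46.9 CPM. At 22 h the values were 6.78, 5.73, 5.70 and 4.82 CPM with 500 nM and 42.4, 41.4, 39.1, 44.7 and 42.4 CPM with 2 µM. All 4 treatments were separate from each other at each time, in the order R1881, 500 nM, 2 µM, DMSO. Against R1881 alone WNT2 at 22 h was higher by 3.46 (log2, standard error 0.13, adjusted p = 2.02e-29) at 500 nM and by 6.32 (standard error 0.10, adjusted p = 6.03e-49) at 2 µM. The fibroblast list was also higher with 2 µM in the same libraries, and its part in the WNT2 difference was not tested. The high dose still left WNT2 below DMSO, with a log2 difference of -1.13 (standard error 0.06) at 8 h and -1.01 (standard error 0.06) at 22 h.

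Return was measured for each darolutamide library as the share of the distance from the R1881 mean to the DMSO mean that it had covered, on the log2 CPM scale. It was computed only for members that passed the R1881 test in that line at that time. For WNT2 at 8 h, 500 nM gave a return of 39.7% ± 3.79 (SD, n = 4) and 2 µM one of 74.7% ± 1.24 (SD, n = 5). The corresponding values at 22 h were 46.5% ± 2.74 and 86.1% ± 0.960. The scale matters for a gene this strongly repressed. In linear CPM the same libraries had returned 6.25% and 49.5% of the distance at 22 h, and 11.5% and 43.1% at 8 h.

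WNT5A returned too, but in another way at each time. Libraries at 8 h had 9.77, 12.1, 10.8 and 11.1 CPM with 500 nM and 11.2, 11.7, 12.4, 13.4 and 13.4 CPM with 2 µM, so that all those with 2 µM lay above the highest DMSO library of that time (10.2 CPM). Against DMSO the high dose was higher by 0.43 (log2, standard error 0.08, adjusted p = 9.08e-06), and the return was 182% ± 21.7 (215% in linear CPM). At 22 h the 500 nM libraries had 5.62, 7.61, 6.61 and 6.39 CPM and the 2 µM libraries 10.8, 11.7, 11.98, 12.9 and 10.7 CPM, above R1881 and below or within the DMSO range. The return was then 38.7% ± 10.4 and 86.7% ± 6.58, and the high dose differed from DMSO by -0.23 (log2, standard error 0.08, adjusted p = 0.0122). This last call was lost with only the control replicates numbered 6 and above (adjusted p = 0.0599).

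WNT2B separated the times. With 2 µM its 5 libraries had 1.07, 2.21, 1.81, 1.76 and 1.87 CPM at 8 h, above every R1881 library, and 0.405, 0.593, 0.362, 0.479 and 0.656 CPM at 22 h, on 8 to 15 reads, partly within the R1881 range. The log2 fold change against R1881 was 1.67 at 8 h (standard error 0.21, adjusted p = 1.07e-09) and 0.96 at 22 h (standard error 0.32, adjusted p = 0.00728). At 22 h the high dose was still lower than DMSO (-2.46, standard error 0.23, adjusted p = 4.2e-14), a return of 26.5% ± 9.71 on the log2 scale and 9.18% in linear CPM. The rise at 22 h missed the threshold with only the control replicates numbered 6 and above (0.71, adjusted p = 0.0721).

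**Figure D4:**
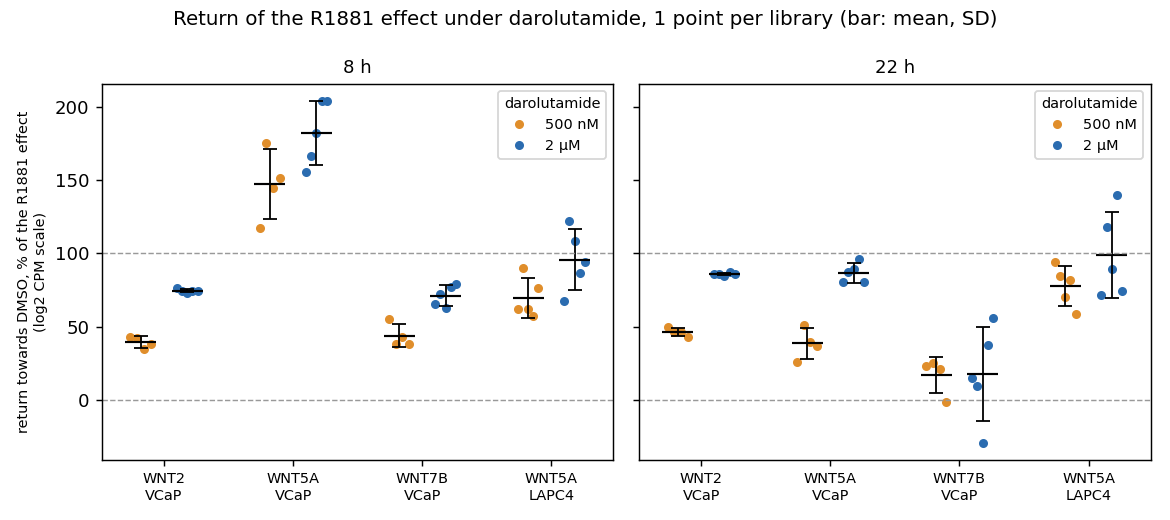
Return towards DMSO under darolutamide as a percentage of the R1881 effect on the log2 CPM scale (vertical axis), for WNT2, WNT5A and WNT7B in VCaP and WNT5A in LAPC4, with 1 point per library and mean and SD bars. Dashed lines mark the R1881 mean (0%) and the DMSO mean (100%). WNT2 reaches 86.1% with 2 µM at 22 h, and WNT7B in VCaP goes from 71.3% with 2 µM at 8 h to 18.1% ± 32.0 at 22 h.

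WNT7B, the ligand that the androgen raised, was lowered by darolutamide at 8 h. Its libraries had 15.3, 22.4, 19.9 and 22.3 CPM with 500 nM and 12.05, 10.3, 12.8, 9.26 and 8.86 CPM with 2 µM, all below the lowest R1881 library (41.0 CPM). The log2 fold changes were -1.45 (standard error 0.16, adjusted p = 4.37e-11) and -2.36 (standard error 0.15, adjusted p = 9.62e-20), and the difference between the doses was -0.91 (standard error 0.18, adjusted p = 7.11e-05). At 22 h the 500 nM libraries had 9.30, 9.18, 9.43 and 11.1 CPM, and the 2 µM libraries 9.85, 10.2, 13.5, 8.41 and 7.36 CPM, within the range of R1881 but for the lowest one. Neither dose passed the test then (-0.21 and -0.19, adjusted p = 0.313 and 0.286), though both did with GC as a covariate (-0.18 and -0.16, adjusted p = 0.0293 and 0.0284), and 2 µM stayed above DMSO by 0.87 (log2, standard error 0.17, adjusted p = 9e-06). The return with 2 µM was 71.3% ± 7.03 (SD, n = 5) at 8 h. At 22 h it was 18.1% ± 32.0, from -28.8% to 56.1% between libraries, and 7.57% when only control replicates 1 to 5 set the means.

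ROR1 followed the same course. At 8 h it stood at 22.8, 22.6, 22.1 and 23.5 CPM with 500 nM and at 16.9, 16.5, 14.6, 16.02 and 17.8 CPM with 2 µM, the latter close to the DMSO range, with a return of 93.8% ± 9.57 on the log2 scale. At 22 h it stood at 19.1, 22.0, 20.4 and 21.0 CPM with 500 nM and at 19.7, 19.6, 18.8, 19.3 and 19.1 CPM with 2 µM. The R1881 range was 18.6 to 21.1 CPM, and only the 500 nM library at 22.0 CPM lay outside it. The difference of the high dose from R1881 was -0.03 (log2, standard error 0.05, adjusted p = 0.569) and from DMSO 0.53 (standard error 0.05, adjusted p = 1.48e-12).

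TCF7 was lowered at 8 h by 2 µM (-0.48, standard error 0.14, adjusted p = 0.00228), with libraries at 1.99, 1.71, 2.00, 1.48 and 1.34 CPM. At 22 h its libraries had 2.74, 2.06, 1.63, 1.83 and 1.83 CPM, overlapping R1881 (-0.29, standard error 0.13, adjusted p = 0.0529) and well above DMSO (1.40, standard error 0.16, adjusted p = 3.49e-11). The comparison with R1881 lay close to the threshold. It passed with edgeR's own expression filter (adjusted p = 0.038), with GC as a covariate (0.045) and with only the groups compared (0.044), as it did without replicate 1 (-0.44, adjusted p = 0.00467) or without replicate 2 (-0.33, adjusted p = 0.0441) of the high dose. LEF1 at 8 h had 191.2 to 208.3 CPM with 2 µM, between DMSO and R1881 (-0.41 against R1881, standard error 0.03, adjusted p = 4.33e-16). At 22 h both doses put LEF1 below R1881, with log2 differences of -0.21 (standard error 0.04) at 500 nM and -0.16 (standard error 0.03) at 2 µM, and the high dose was also below DMSO (-0.22, standard error 0.03, adjusted p = 1.86e-07).

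Of the feedback genes, AXIN2 was lower with 2 µM than with R1881 at 8 h, at 3.88, 3.98, 3.23, 3.52 and 4.79 CPM (-0.60, standard error 0.10, adjusted p = 1.29e-06), and level with DMSO (0.09, standard error 0.10). At 22 h it was higher than with R1881, by 0.38 (standard error 0.12, adjusted p = 0.00445) at 500 nM and 0.24 (standard error 0.11, adjusted p = 0.0412) at 2 µM. The second of these missed the threshold without replicate 1, 2, 3 or 5 of the high dose, with adjusted p from 0.0606 to 0.212, and also with DESeq2 (0.0513), without the filter (0.106), with edgeR's own filter (0.0547) and with only control replicates 1 to 5 (0.136). NKD1 was higher than with R1881 at 22 h under both doses, with 1.16, 1.17, 0.862 and 1.01 CPM at 500 nM (0.87, standard error 0.20, adjusted p = 0.000253) and 0.990, 1.19, 1.54, 1.70 and 0.703 CPM at 2 µM (1.09, standard error 0.18, adjusted p = 4.55e-07). Against DMSO the high dose differed by 0.32 (standard error 0.17, adjusted p = 0.101), which passed the threshold without its replicate 5 (0.44, adjusted p = 0.0212). WNT11 was lower than with R1881 at 8 h with 500 nM, at 0 to 5 reads a library (-1.66, standard error 0.49, adjusted p = 0.00597), a call that was lost without replicate 2 (-1.24, adjusted p = 0.055).

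The doses were compared directly. At 8 h 7 of 10 members differed between 2 µM and 500 nM, against 17.6% of all genes, and at 22 h 2 of 10, against 20.2%. The members at 22 h were WNT2 (2.86, standard error 0.09, adjusted p = 1.36e-32) and WNT5A (0.82, standard error 0.10, adjusted p = 2.49e-09), both higher with 2 µM in every library. At 8 h the high dose had more WNT2 (1.57, standard error 0.08), WNT2B and WNT11, and less WNT7B, ROR1 (-0.48, standard error 0.06), LEF1 (-0.35, standard error 0.04) and AXIN2 (-0.44, standard error 0.12). The WNT2B difference (0.71, adjusted p = 0.0330) was lost without replicate 1, 3 or 4 of the low dose or 2, 3 or 5 of the high dose, without the filter (0.0565) and with control replicates 1 to 5 (0.0503). WNT11 (1.51, adjusted p = 0.0418) lost its call without replicate 1, 2 or 3 of the low dose or 1, 3 or 5 of the high dose, with DESeq2 (0.0668) and without the filter (0.0869). Against DMSO, the high dose left 6 of 10 members different at 8 h (27.5% of all genes) and 8 of 10 at 22 h (59%), of which WNT2B, TCF7, WNT11 and WNT2 were farthest from DMSO at 22 h.

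In LAPC4 R1881 lowered WNT5A at both times and ROR1 at 22 h, and raised LEF1 at both times and WNT7B at 22 h. At 8 h 2 of 8 members passed, 1 in each direction, against 2.64% of all genes (1.75% higher and 0.895% lower). At 22 h 4 of 8 passed, 2 in each direction, against 13.3% (6.83% higher and 6.45% lower). Because the members were chosen with earlier results known, these counts are descriptive. With GC as a covariate, WNT7B (0.45, adjusted p = 4.5e-07) and ROR1 (-0.14, adjusted p = 0.00111) passed at 8 h as well. WNT2B, TCF7, AXIN2 and NKD1 did not pass at either time, with log2 fold changes between -0.24 and 0.27.

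WNT5A was the most abundant of the 8 members in DMSO. At 8 h it had 167.8, 180.2 and 193.7 CPM in DMSO and 140.9, 145.6 and 155.1 CPM with R1881. At 22 h it had 156.7, 165.8 and 185.1 CPM against 114.9, 125.4 and 138.1 CPM. No R1881 library overlapped DMSO, and the log2 fold changes were -0.30 (standard error 0.03, adjusted p = 6.07e-10) and -0.43 (standard error 0.04, adjusted p = 1.38e-14). WNT7B had 4.15, 5.78 and 7.35 CPM in DMSO at 22 h and 8.14, 13.1 and 17.4 CPM with R1881, again without overlap (1.13, standard error 0.16, adjusted p = 7.72e-08). At 8 h its groups overlapped at 4.11 to 7.87 and 6.54 to 10.3 CPM (0.34, standard error 0.14, adjusted p = 0.3401).

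ROR1 at 22 h fell in LAPC4, from 49.7, 52.4 and 59.4 CPM to 37.2, 43.0 and 48.3 CPM (-0.31, standard error 0.05, adjusted p = 9.15e-06). LEF1 rose at 22 h from 99.7, 106.1 and 114.2 CPM to 118.7, 126.1 and 131.2 CPM (0.23, standard error 0.03, adjusted p = 3.67e-09). Both pairs of groups stood apart. The LEF1 call at 22 h was lost with only the control replicates numbered 6 and above (0.17, adjusted p = 0.075), and the smaller rise at 8 h (0.10, adjusted p = 0.0178) was lost with either subset of the controls (adjusted p = 0.492 and 0.371) and without the filter (0.119). Between the times, the R1881 effect passed the interaction test for WNT7B (0.79, standard error 0.21, adjusted p = 0.0183) and LEF1 (0.13, standard error 0.04, adjusted p = 0.0356), that is 2 of 8 members against 3.21% of all genes. Neither passed within control replicates 1 to 5 (adjusted p = 0.406 and 0.112) or 6 and above (adjusted p = 0.293 and 0.689), and LEF1 also missed the threshold with RLE scaling (0.0573) or without the filter (0.214).

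**Figure D5:**
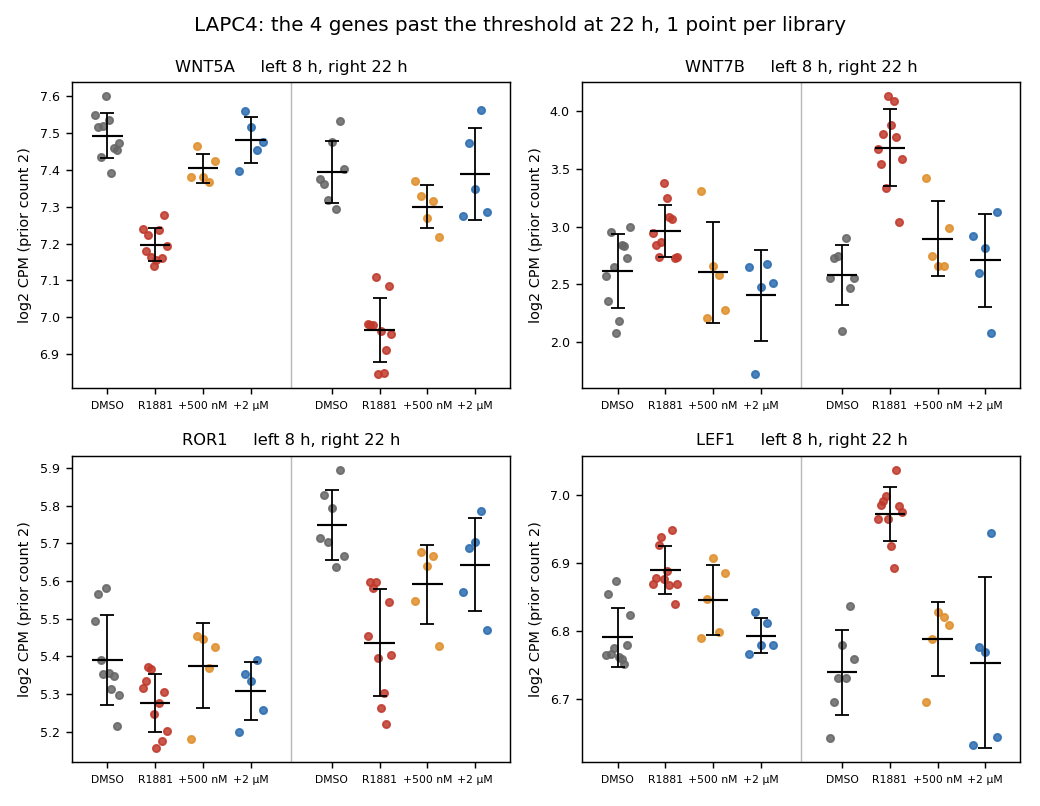
Level of WNT5A, WNT7B, ROR1 and LEF1 in each LAPC4 library, as log2 CPM with a prior count of 2, by treatment at 8 h (left) and 22 h (right), with mean and SD bars. R1881 libraries stand apart from DMSO at 22 h in all 4 genes. These genes are shown because they passed the R1881 test at that time, so this separation is in part built in. Group means with darolutamide then lie between R1881 and DMSO, but single libraries spread, with ROR1 returns of -2.73% to 77.2% at 500 nM.

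In LAPC4, darolutamide moved the androgen-responsive members towards their DMSO level. As in VCaP, these contrasts share the R1881 libraries with those above, so opposite signs are in part built in. With 2 µM, 1 of 8 members differed from R1881 at 8 h, WNT5A, which was higher, against 1.54% of all genes (0.467% higher and 1.08% lower). At 22 h 4 of 8 differed, 2 in each direction, against 10.5% (5% higher and 5.47% lower). WNT5A libraries with 2 µM at 22 h had 154.6, 177.3, 162.7, 189.0 and 155.9 CPM, all above R1881 (0.42, standard error 0.04, adjusted p = 7.93e-13). WNT7B had 7.45, 5.94, 6.93, 4.11 and 8.65 CPM, of which 4 lay below every R1881 library (-0.98, standard error 0.18, adjusted p = 2.68e-05), LEF1 changed by -0.21 (standard error 0.03, adjusted p = 6.51e-07), and ROR1 by 0.21 (standard error 0.06, adjusted p = 0.0125). The ROR1 call was lost without replicate 4 of the high dose (0.17, adjusted p = 0.0802), with only control replicates 1 to 5 (0.12, adjusted p = 0.212) and with only the groups compared (0.21, adjusted p = 0.0723).

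At 500 nM, 1 of 8 members passed at 8 h against 0.626% of all genes, and 3 of 8 at 22 h against 5.89%. WNT5A was among them at both times (0.21, standard error 0.04, adjusted p = 0.00128, and 0.33, standard error 0.04, adjusted p = 4.12e-09), and WNT7B and LEF1 passed at 22 h. No member differed between the doses or between 2 µM and DMSO at either time in edgeR's test, in DESeq2, or at an unadjusted p below 0.05 (0 of 8 each), where 0.0275% and 0.258% of all genes differed between the doses and 0.011% and 0.0165% between 2 µM and DMSO. The return of WNT5A at 22 h was 78.1% ± 13.5 with 500 nM and 98.7% ± 29.2 with 2 µM (SD, n = 5). With 2 µM the return at 22 h was 88.3% ± 36.2 for WNT7B, 93.9% ± 54.1 for LEF1 and 66.4% ± 39.5 for ROR1. In DMSO alone, 4 of 8 members differed between 22 and 8 h, against 22.1% of all genes. ROR1 (0.36, standard error 0.05) and AXIN2 (0.43, standard error 0.10) were higher at 22 h, and NKD1 (-0.53, standard error 0.17) and WNT5A (-0.10, standard error 0.04) lower. The WNT5A difference missed the threshold with DESeq2 (adjusted p = 0.0674), RLE scaling (0.0663), no filter (0.162), edgeR's own filter (0.0829) and only the groups compared (0.138). It was at 0.0060 with only the control replicates numbered 6 and above, where AXIN2 and NKD1 also missed the threshold (adjusted p = 0.129 and 0.313), and NKD1 missed it with control replicates 1 to 5 (adjusted p = 0.0729) or without the filter (0.0522).

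The lines were compared by testing the difference of their R1881 effects at 22 h in 1 fit of both. Of the 8 members measured in both, 6 differed, against 58.6% of all genes. The difference, VCaP minus LAPC4, was negative for WNT2B (-3.32, standard error 0.32, adjusted p = 1.07e-16), WNT5A (-1.27, standard error 0.08, adjusted p = 6.32e-27), LEF1 (-0.26, standard error 0.05, adjusted p = 4.40e-07) and NKD1 (-0.65, standard error 0.26, adjusted p = 0.0250). It was positive for TCF7 (1.46, standard error 0.27, adjusted p = 1.13e-06) and ROR1 (0.91, standard error 0.08, adjusted p = 6.41e-20). ROR1 had opposite directions in the lines, each past its own test. WNT7B rose by 1.06 in VCaP and 1.13 in LAPC4, a difference of -0.03 (standard error 0.21, adjusted p = 0.931). The NKD1 difference was lost with either subset of the controls (adjusted p = 0.29 and 0.0614), and that of TCF7 with only replicates 6 and above (0.94, adjusted p = 0.177).

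The wider pathway was described with a list of 80 other WNT genes. In VCaP 60 were tested and 48 of them differed between R1881 and DMSO at 22 h, 23 higher and 25 lower, which is 80% against 77.4% of all genes, with a median log2 fold change of -0.06 beside -0.03 for all genes. Of 6 other ligands 5 passed, 1 higher and 4 lower, with a median of -1.55. WNT10B went from a mean of 7.03 to 0.863 CPM (-3.03, standard error 0.12), WNT4 from 1.32 to 0.154 CPM (-3.02, standard error 0.33) and WNT8B from 7.61 to 1.92 CPM (-1.98, standard error 0.11). All 3 were higher again with 2 µM darolutamide, at 5.86, 0.495 and 5.59 CPM. Among 13 Frizzled, LRP and related receptors, 6 rose and 5 fell. The Frizzled receptors FZD5 (14.5 to 161.8 CPM, log2 fold change 3.48, standard error 0.05), FZD8 (6.62 to 42.1 CPM, 2.67, standard error 0.07) and FZD1 (8.97 to 35.4 CPM, 1.98, standard error 0.07) rose, and FZD10 fell (0.965 to 0.222 CPM, -2.05, standard error 0.27). LGR5, a receptor for R-spondins, rose from 0.133 to 0.469 CPM (1.77, standard error 0.37), while 4 of the 5 R-spondin axis genes tested fell. LGR5, WNT4 and FZD10 were at low levels, which limits their fold changes. Under alternatives the LGR5 change at 22 h ran from 1.32 to 2.78.

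Of 15 cytoplasmic components in VCaP, 12 passed at 8 h, 10 higher and 2 lower, against 66.9% of all genes (32.8% higher and 34.1% lower). Their median size of log2 fold change was 0.47 beside 0.33 for all genes. At 22 h 10 passed, 8 higher and 2 lower, against 77.4% of all genes (37.4% higher and 40% lower). The median size was then 0.22 beside 0.53. Nuclear partners other than LEF1 and TCF7 were split at 22 h, with 4 higher and 5 lower of 11. Of 3 other feedback genes 1 passed, lower, beside the same 77.4% of all genes. In LAPC4 8 of 47 other genes passed at 22 h, 3 higher and 5 lower, or 17% beside 13.3% of all genes. PRICKLE1, a planar cell polarity protein, was the only one called in the same direction at both times, at 69.1 CPM in DMSO, 115.2 CPM with R1881 and 68.8 CPM with 2 µM darolutamide at 22 h (0.74 with R1881, standard error 0.04, adjusted p = 3.84e-22). The list is smaller than the pathway and was drawn up with earlier results of these data known, so its counts are descriptive.

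The genes whose pattern over the 8 VCaP group means was most like that of WNT2 were PRRG1, TRNP1 and PTCD2, with Pearson r of 0.995, 0.994 and 0.992 among 13966 genes compared. In all, 262 genes had an r above 0.95, and the points share their control groups and libraries. Their log2 fold changes with R1881 at 22 h were -0.82, -1.41 and -1.06, all smaller than that of WNT2. In LAPC4 the genes most like WNT7B were FAM101B, NTPCR and PARM1, with r of 0.996, 0.989 and 0.988, and 70 of 13865 genes exceeded 0.95. Over the 57 single libraries their r with WNT7B was 0.854, 0.534 and 0.690. Their log2 fold changes with R1881 at 22 h were 1.14, 0.097 and 0.58.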

How the data were processed

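RNA was sequenced as single 50-base reads from 112 libraries. The deposited table holds raw read counts per gene, which the authors made with STAR and featureCounts on GRCh38 (hg38), per the labels and the study's methods. The study's methods name a stranded library kit. The annotation release and the strand setting of the counting are not given in the sources used here, so reads of overlapping genes are uncertain. The methods state 5 biological replicates per condition, whereas groups held 4 to 10 libraries.

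Counts were analysed per cell line in R 4.3.3 with edgeR 4.0.16. A gene was kept where 4 or more libraries of the line held 10 or more reads, libraries were scaled by TMM, and the 8 groups of a line entered 1 quasi-likelihood fit, with Benjamini-Hochberg adjustment over all genes and a threshold of 0.05. The standard error is the fold change divided by the root of F. The contrast between the lines used 1 fit of all 16 groups. CPM used the scaled library sizes, and log2 CPM a prior count of 2. DESeq2 1.42.0, other scalings and filters, GC as a covariate, subsets of the control replicates, a replicate block and leaving out libraries were alternatives. The code was tested on simulated data.

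The named genes are the 10 members, the other WNT genes with the largest R1881 changes at 22 h among those called at both times in 1 direction (up to 4 each way per line), the 3 genes with the highest Pearson r to the member that changed most in each line (8 group means, mean log2 CPM above 1), and ERG as a check of the labels. Members and lists were chosen with earlier results of these data known. The main fits did not pair libraries by replicate number. Within groups, all pairs of libraries differed beyond read sampling (chi-square per degree of freedom from 1.62 in VCaP and 1.44 in LAPC4). That does not show that they came from separate cultures. Depth limits genes of few reads, such as WNT11.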

Additional observations from a re-analysis of the deposited data

Results flagged for a closer look

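Over 144 combinations of a gene and a group of 4 to 10 libraries, 4 held a library far from the others, where chance flags about 1 in 20. WNT7B was at 11.1 CPM in replicate 4 of VCaP with R1881 plus 500 nM darolutamide at 22 h, beside 9.18 to 9.43 CPM in the other libraries. NKD1 was at 0.385 CPM in replicate 1 of VCaP in DMSO at 22 h, beside 0.916 to 1.31 CPM. WNT2B was at 0.923 CPM in replicate 10 of LAPC4 in DMSO at 8 h, beside 0.372 to 0.647 CPM. WNT7B was at 3.18 CPM in replicate 2 of LAPC4 with R1881 plus 2 µM darolutamide at 8 h, beside 5.46 to 6.29 CPM.

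The R1881 effect differed between 22 and 8 h by edgeR's interaction test for each of the 10 genes in VCaP. The difference, as log2 fold change at 22 h minus that at 8 h, was -2.83 for WNT2 (adjusted p = 5.16e-26), -1.12 for WNT2B (0.0016), -1.21 for WNT5A (1.85e-15), -2.21 for WNT7B (6.03e-15) and -2.45 for WNT11 (5.95e-05). For the other genes it was -0.54 for ROR1 (adjusted p = 6.81e-11), -0.64 for LEF1 (1.52e-20), 0.63 for TCF7 (0.00282), -0.94 for AXIN2 (5.83e-09) and -1.03 for NKD1 (3.87e-05). In LAPC4 it was 0.79 for WNT7B (adjusted p = 0.0183) and 0.13 for LEF1 (0.0356).

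The R1881 effect at 22 h differed between the lines by the same kind of test, as VCaP minus LAPC4, by -3.32 for WNT2B, -1.27 for WNT5A, 0.91 for ROR1, -0.26 for LEF1, 1.46 for TCF7 and -0.65 for NKD1.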

How the results depend on the processing

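Fold changes of the members and of the named other WNT genes were recomputed under alternatives. Of these, 2830 kept their side of the threshold, 68 lost and 25 gained a call, and 1 reversed. A reversal was counted only where the main or the alternative value passed the threshold. Some values that passed in neither run also changed sign, such as ROR1 in VCaP with 2 µM against R1881 at 22 h (-0.03, and up to 0.03). The reversed value was WNT5A in LAPC4 DMSO, 22 against 8 h, at 0.0060 with control replicates 6 and above. In VCaP, in each alternative run, the count of members called in each comparison stayed within 1.5 times its value. In LAPC4 the members called with R1881 at 8 h (2) were 1 without the filter and within either control subset, and 4 with GC as a covariate. With 2 µM against R1881 at 8 h (1), 3 were called with GC and 2 with only the groups compared, and with 500 nM at 8 h (1), 2 with GC. In DMSO over time (4), 2 were called without the filter and 1 with control replicates 6 and above. The interaction (2) gave 1 with RLE scaling or without the filter, and 0 within either control subset. Among other WNT genes of LAPC4, R1881 at 8 h (1) called 2 with control replicates 6 and above and 3 with GC, and R1881 at 22 h (8) called 4 and 1 within the control subsets and 14 with GC. With 2 µM against R1881 at 22 h (3), 6 were called with control replicates 1 to 5, 12 with GC, and 3 to 5 when 1 library was left out (5 without LAPC4 replicate 5 of 2 µM). The cause was not tested.

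Of same-numbered pairs of libraries from different groups, 33 of 149 correlated above 0.1 in VCaP (mean -0.00511) and 57 of 161 in LAPC4 (mean 0.0549). The mean for pairs of other numbers was 0.000668 in VCaP and -0.00717 in LAPC4. In LAPC4 same-numbered pairs were thus slightly more alike on average, and what the numbers stand for was not tested. With the replicate block, the LAPC4 counts were 1 for R1881 at 8 h, 0 for 500 nM at 8 h, 2 for DMSO over time, 1 for the interaction and 9 for other WNT genes with 2 µM at 22 h. In VCaP the block left without a call TCF7 at 8 h with 2 µM against R1881 (-0.34, adjusted p = 0.119) and against DMSO (0.56, 0.101), AXIN2 with 2 µM at 22 h (0.15, 0.268), and WNT2B at 8 h with 500 nM (1.31, 0.0819) and between the doses (0.71, 0.0597), and LEF1 with R1881 at 22 h gained one (-0.10, 0.00236). Low counts limit WNT11 in VCaP.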
